A study of Mus musculus with 6 samples.

Results

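The Elane high cells described here are neutrophil progenitor-like cells, chosen by their own transcript levels as cells in which the transcript of Elane, neutrophil elastase, made up at least 0.5% of a cell's unique molecular identifiers (UMIs, one per captured transcript). They were taken from mouse cells with at least 500 detected genes, and cells were left out where Camp, Ngp and Ltf, genes of later granules, together reached 1% of UMIs or where Ms4a2, Fcer1a, Cd200r3 and Cyp11a1, genes of basophils and mast cells, together gave more than 2 UMIs. This left 2362 of 24307 cells. The cells came from 6 single-cell RNA libraries of lineage-negative haematopoietic stem and progenitor cells, 3 from Stag2 knockout mice (KO1 to KO3) and 3 from wild-type mice (WT1 to WT3). Cohesin, of which STAG2 is 1 of the variable subunits, is a ring-shaped complex that holds sister chromatids and chromatin loops. The labels give only the genotype: strain, age, the means of deletion and the deleted stretch of Stag2 are not stated, and no treatment is named. The sample codes share 1 prefix (XA) in the 3 KO libraries and WT1, while WT2 and WT3 carry prefixes of their own whose meaning is not given.

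Neutrophils are made in stages. Early granulocyte progenitors fill primary (azurophil) granules with myeloperoxidase and with serine proteases such as elastase, proteinase 3 and cathepsin G, under the transcription factors C/EBP alpha, PU.1 and Gfi1. C/EBP epsilon then drives the passage to secondary granules, whose proteins include lipocalin 2, lactoferrin and cathelicidin.

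The genes of 3 primary granule proteases lie close together on chromosome 10 of the GRCm38 build: Prss57 at chr10:79781474-79790961 on the minus strand, Prtn3 at chr10:79874476-79883174 and Elane at chr10:79886247-79888215, both on the plus strand (GENCODE M21). The DNA before the RefSeq start sites of Elane and Prtn3 is shown because Elane chose the cells and its neighbour Prtn3 differed between the genotypes in them. The upstream DNA of Ifitm1 and Slpi is shown because they had the lowest KO levels relative to WT among the named genes. Each line runs 5′ to 3′ on the gene's strand from base 250 to base 71 before the start site in the RefSeq table for GRCm38.p6, and capitals mark a match to a motif searched on both strands. The motifs were GAGGAA, a core bound by PU.1, and TTNNGCAA, a core bound by C/EBP factors.
Elane, chr10:79886062-79886241: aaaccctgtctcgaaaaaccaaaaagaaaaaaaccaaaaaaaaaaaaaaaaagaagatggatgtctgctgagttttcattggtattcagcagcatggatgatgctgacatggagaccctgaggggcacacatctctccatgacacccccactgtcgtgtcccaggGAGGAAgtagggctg
Prtn3, chr10:79879417-79879596: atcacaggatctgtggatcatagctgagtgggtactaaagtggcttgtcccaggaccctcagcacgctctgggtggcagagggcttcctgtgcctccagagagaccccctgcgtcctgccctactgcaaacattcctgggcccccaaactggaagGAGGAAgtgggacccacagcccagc
Ifitm1, chr7:140967826-140968005: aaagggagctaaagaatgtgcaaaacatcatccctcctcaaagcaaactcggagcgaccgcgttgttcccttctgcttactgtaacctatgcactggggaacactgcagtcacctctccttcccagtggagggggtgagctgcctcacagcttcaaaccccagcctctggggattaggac
Slpi, chr2:164356578-164356757: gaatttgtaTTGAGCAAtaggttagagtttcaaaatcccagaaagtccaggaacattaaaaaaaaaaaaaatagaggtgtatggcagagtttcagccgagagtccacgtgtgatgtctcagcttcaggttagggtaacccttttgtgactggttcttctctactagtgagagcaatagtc
Elane and Prtn3 each held 1 GAGGAA match and no TTNNGCAA match. Slpi held 1 TTNNGCAA match, and Ifitm1 held neither. Over 32851 promoter windows of the same 180 bases, 17.2% held GAGGAA and 7.42% held TTNNGCAA, so these matches are a description of the letters and not of binding. The window was set after the matches had been seen, so as to leave out annotated exons while keeping the GAGGAA matches of Elane and Prtn3, and nothing is drawn from them. In GENCODE M21 the Elane window lies outside any gene, and those of Prtn3, Ifitm1 and Slpi lie within their gene's span but in no annotated exon.

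The cells' other transcripts were those of the label. Summed over the Elane high cells of a library, Prtn3 was 7.5 to 8.5 times its level in the remaining cells of that library, Ms4a3 8.3 to 10.3 times, Cebpe 5.4 to 19.1 times and Mpo 5.1 to 9.4 times. These values describe the choice of cells and are no test. Elane itself stood at 17865, 15541 and 16939.6 CPM (a gene's UMIs per 1000000 UMIs of the summed cells) in KO1, KO2 and KO3, and at 14122, 15988 and 18231 CPM in WT1, WT2 and WT3, so the groups overlapped in the gene that chose the cells. At the edge of the rule, the 118 cells with Elane between 0.5% and 0.6% of UMIs had 157 CPM of Cebpe and 4436 CPM of Prtn3 in their pooled sum, and the 112 cells between 0.4% and 0.5%, left outside, had 159 and 4210 CPM. Irf8 stood at 202 CPM just inside and 294 CPM just outside, against 55.2 to 167 CPM in the library sums of Elane high cells. Csf1r stood at 24.1 and 26.3 CPM, against 5.58 to 16.2 CPM. A further 109 cells were left out by the later granule genes, 52 by the basophil genes and 64 by having under 500 genes. In the clusters the authors deposited, 92.5 to 100% of the Elane high cells of each library lay in 1 to 3 clusters, of which they made up 23.0 to 66.0%.

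The median cell held 15560, 18993 and 16737.5 UMIs in the KO libraries and 19997, 18554.5 and 11688 in the WT libraries, against 3230 to 5366.5 in the other cells. The summed cells gave 1778032 UMIs (WT1, 91 cells) to 9975631 UMIs (KO1, 657 cells), so WT1 had the fewest UMIs behind its values. The median share of mitochondrial UMIs was 2.49 to 3.03% in all 6 libraries. Pairs of libraries shared 11 to 48 cell barcodes. Simulated doublet scores marked 1 to 32 of the Elane high cells per library, and 375 genes passed the genotype test described further on without them.

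Elane high cells took a larger share of the KO libraries. They made up 14.7% of cells in KO1 (exact binomial 95% interval 13.7 to 15.8%), 11.1% in KO2 (9.84 to 12.4%) and 12.5% in KO3 (11.4 to 13.6%). They made up 3.70% in WT1 (2.99 to 4.52%), 5.44% in WT2 (4.79 to 6.15%) and 9.40% in WT3 (8.72 to 10.1%). All KO libraries lay above all WT libraries, with WT3 nearest to them. The mean was 12.7% ± 1.82 in KO and 6.18% ± 2.92 in WT (SD, n = 3 each), a difference of 6.56 percentage points, with a 2-sided exact permutation p of 0.1, the smallest that 3 mice against 3 allow (Benjamini-Hochberg 0.1 over 3 shares). With cells of at least 1000 genes, or with each cell thinned to 2000 UMIs, the groups overlapped and the exact p was 0.3, at differences of 5.23 and 5.53 points. The intervals cover counting error only.

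Further sets of cells, taken as neighbouring stages by their transcripts alone, also had larger shares in KO. Mpo high, Elane low cells, with Mpo at 0.2% of UMIs or more and Elane under 0.1%, made up 3.11% ± 0.740 of cells in KO and 1.34% ± 0.282 in WT (SD, n = 3 each). Cells of the secondary granule stage, with Camp, Ngp and Ltf at 1% or more, numbered 65, 32 and 26 in KO1 to KO3 and 3, 4 and 16 in WT1 to WT3, or 1.15% ± 0.405 and 0.150% ± 0.0766 (SD, n = 3 each). Neither pair of groups overlapped, and each exact permutation p was again 0.1. Taking the 3 sets as the whole, Elane high cells were 74.2, 75.6 and 75.2% in KO and 76.5, 77.2 and 84.5% in WT. A library's percentages sum to a whole, so a larger share cannot be told apart from a loss of other cells.

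**Figure D1:**
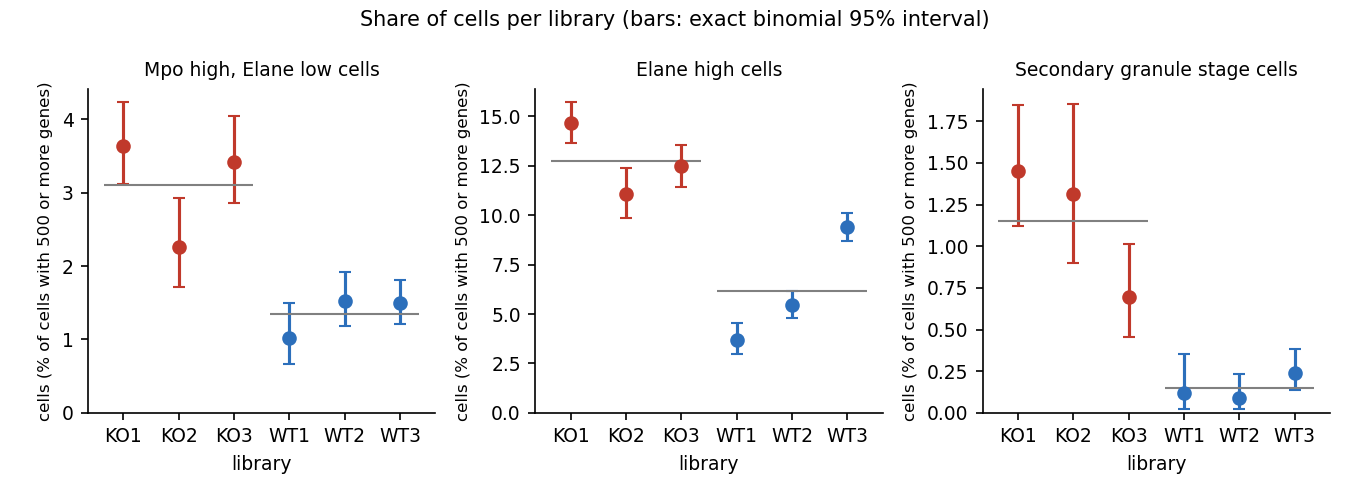
Share of Mpo high, Elane low cells, Elane high cells and secondary granule stage cells per library, as a percentage of cells with at least 500 genes (vertical axes differ). Points are libraries with exact binomial 95% intervals, red for KO and blue for WT, and grey lines are group means; every KO point lies above every WT point in all 3 panels.

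Within the Elane high cells, UMIs were summed per library and compared between 3 KO and 3 WT mice with the quasi-likelihood test of edgeR. Of 10006 genes tested, 413 passed a Benjamini-Hochberg adjusted p of 0.05 (4.13%), 162 higher in KO (1.62%) and 251 lower (2.51%), and the median log2 fold change of all genes was 0.00. In 20.4% of all tested genes the 2 groups did not overlap. With DESeq2 233 passed. With the prefix as a covariate 44 genes passed, and within the XA libraries alone (3 KO against WT1, whose spread is assumed to be that of KO) 60 passed, although 410 of the 413 genes kept their direction with the covariate. Of 66 called genes named by rule, 23 still passed with the covariate and 22 within the XA libraries. Both settings rest on WT1 as the only wild-type library that shares its prefix with a KO library, so prefix and genotype cannot be told apart for WT2 and WT3.

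Stag2, the deleted gene, was read first. It stood at 23.1, 21.7 and 17.0 CPM in KO and 35.4, 32.4 and 34.8 CPM in WT. Every KO library lay below every WT library, at a log2 fold change of -0.79 ± 0.13 (SE, n = 3 each, edgeR adjusted p = 0.000236), and the gene was still counted in each KO library. The call was lost with the prefix covariate (log2 -0.85, edgeR adjusted p = 0.165), within the XA libraries (log2 -0.83, 0.174) and after thinning (0.292), so the fold was no smaller in the first pair of settings. A 3′ count outside the deleted stretch would not check the deletion. Stag1, the subunit that takes the place of Stag2 in other cohesin rings, rose from 23.1, 19.4 and 21.8 CPM in WT to 29.7, 35.1 and 27.4 CPM in KO (log2 0.46 ± 0.13, edgeR adjusted p = 0.0454), a call lost in 13 of 19 alternative settings. Esco1, which acetylates cohesin, also rose (log2 0.62, edgeR adjusted p = 0.0378), a call lost in 10 of 18 settings. Of 15 genes of the cohesin and Ctcf list 2 were higher and 1 was lower, beside 1.62% and 2.51% of all tested genes. The ring subunits Smc1a, Smc3 and Rad21 and the loader Nipbl did not pass the test, with log2 values of 0.05, 0.05, -0.04 and 0.29.

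The primary granule list held 10 genes, Elane and the cytosolic inhibitor Serpinb1a included. Of these 2 were higher in KO (Prtn3 and Prss57) and 2 lower (Serpinb1a and Ctsc), beside 1.62% and 2.51% of all tested genes. The median log2 fold change of the list was 0.07. Prtn3, proteinase 3, measured 8881, 7966 and 8754 CPM in KO and 5326, 6031 and 6079 CPM in WT. Prss57, a serine protease related to elastase, measured 564, 538 and 541 CPM in KO and 312, 348 and 345 CPM in WT. Neither gene's groups overlapped, and the log2 fold changes were 0.49 ± 0.07 and 0.65 ± 0.08 (SE, n = 3 each, edgeR adjusted p = 3.7e-05 and 6.5e-06). Both calls held in all 19 alternative settings, with the prefix covariate at adjusted p = 0.00764 and 0.0035. Mpo, myeloperoxidase, did not pass at 6854, 6716 and 7930.1 CPM in KO against 5927, 6964 and 6878 in WT (log2 0.06). Ctsg, cathepsin G, did not pass either (log2 0.08). Prtn3, Prss57 and Elane lie close together on chromosome 10. Elane, used to choose the cells, is counted in this list and its median and is otherwise given only as a level.

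Serpinb1a fell. It encodes a cytosolic inhibitor of neutrophil serine proteases, and it measured 272, 225 and 285 CPM in KO and 412, 499 and 575 CPM in WT. All 3 KO values lay below the 3 WT values (log2 -0.99 ± 0.12, SE, n = 3 each, edgeR adjusted p = 9.4e-05), and the call held in all 19 settings. Ctsc, the protease that activates the granule serine proteases, was lower at 23.9, 21.5 and 21.1 CPM against 28.7, 35.6 and 25.8 CPM (log2 -0.48, edgeR adjusted p = 0.0319), a call lost in 11 of 19 settings.

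Lcn2, Wfdc21, Anxa1 and Lrg1, genes of later granules, rose in KO. Of 23 genes of that list 17 could be tested. Of these 4 were higher and 0 lower, beside 1.62% and 2.51% of all tested genes, and the median log2 fold change was 0.59. The rule that chose the cells had capped 3 of the list (Camp, Ngp and Ltf, the last not tested). That median includes Camp and Ngp. Lcn2, lipocalin 2, an iron-siderophore binding protein, measured 66.0, 68.4 and 68.4 CPM in KO and 20.8, 19.9 and 20.7 CPM in WT (log2 1.66 ± 0.11, SE, n = 3 each, edgeR adjusted p = 6.0e-11). Wfdc21, a small WAP domain protein, measured 782, 658 and 764 CPM in KO and 258, 275 and 399.9 CPM in WT (log2 1.17, adjusted p = 0.0279), a call lost on leaving out KO1, KO3 or WT2 and with Elane at 0.25% or more. Anxa1, annexin A1, an anti-inflammatory protein of neutrophils, measured 312, 322 and 323 CPM against 193, 197 and 218 (log2 0.59). Lrg1 rose with log2 0.80, a call lost in 5 of 19 settings (without KO1 or WT2, with the prefix covariate, within the XA libraries and after thinning), with log2 values from 0.27 to 1.19 over the settings. Fcnb, ficolin B, did not pass although its groups did not overlap: 382, 287 and 349 CPM in KO against 70.3, 88.2 and 183 in WT (log2 1.45 ± 0.42, edgeR adjusted p = 0.224). Chil3 had 77.1, 103 and 83.6 CPM against 20.2, 10.5 and 30.7 (log2 1.94, adjusted p = 0.115). The whole list summed to 6096 to 9037 CPM in KO and 2847 to 7522 CPM in WT, so the groups overlapped. In the other cells of the libraries it was also higher in KO, at 9151, 9848 and 5018 CPM against 1431, 1375 and 2810 CPM in WT. How much of the levels in Elane high cells was RNA from other cells, free in the droplets, was not tested.

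Camp and Ngp, whose highest levels the rule removed, had 129.8, 112 and 152 CPM and 51.4, 60.1 and 40.5 CPM in KO. In WT they had 14.6, 23.8 and 107 CPM and 3.94, 3.66 and 55.0 CPM, so WT3 lay near the KO libraries and WT1 and WT2 lay below them. For S100a8 WT3 also lay among the KO libraries, at 4641, 2647 and 4748 CPM in KO and 1436, 1982 and 4459.6 CPM in WT. With Camp, Ngp and Ltf capped at 0.1% of UMIs, 65 of the 66 named called genes kept their call.

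The neutrophil progenitor list, which includes Elane, held 16 genes. Beside 1.62% of all tested genes higher in KO and 2.51% lower, 6 of the 16 were higher and 1 was lower. Besides Prtn3 and Prss57 these were Gstm1, a glutathione transferase, at 1265, 1184 and 1345 CPM in KO and 689, 710.1 and 746 CPM in WT (log2 0.76 ± 0.08, SE, n = 3 each, edgeR adjusted p = 2.4e-07), Igsf6 (log2 0.57, adjusted p = 0.00011), Alas1, the first enzyme of haem synthesis (log2 0.35, adjusted p = 0.024), and Mgst1 (log2 0.34, adjusted p = 0.039). Reads of Gstm1 may be shared with close relatives, so its share of the family is uncertain. Hk3, hexokinase 3, was lower at 60.6, 67.2 and 61.5 CPM against 95, 95.5 and 96.1 CPM (log2 -0.66 ± 0.09, edgeR adjusted p = 1.8e-05), a call lost only after thinning among 19 settings. Ms4a3, used as a marker of the label, had 1561, 1214 and 1507 CPM against 1386, 1567 and 1629 (log2 -0.16, adjusted p = 0.428).

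**Figure D2:**
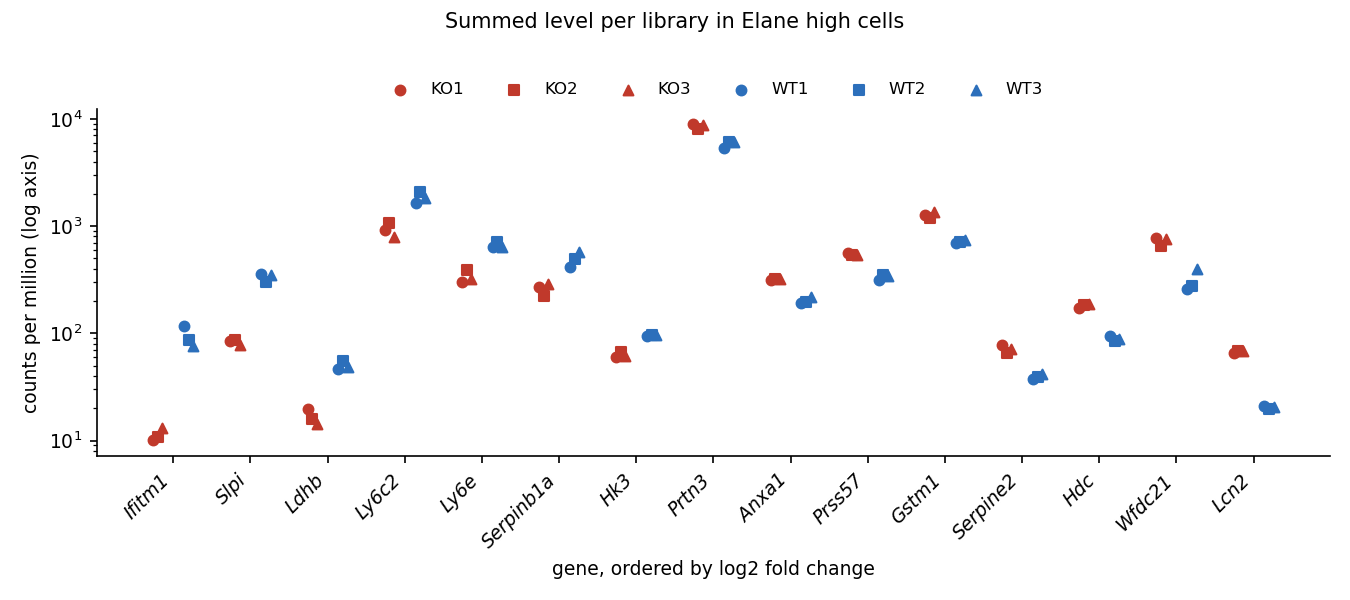
CPM on a log axis in Elane high cells for 15 genes ordered by log2 fold change, with 1 symbol per library (circle, square and triangle for replicates 1, 2 and 3; red KO, blue WT). The 7 genes at the left are lower in KO and the 8 at the right higher, and no red point overlaps a blue point within a gene.

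Cebpe, Gfi1, Cebpa, Cebpd and Spi1, factors of the neutrophil programme, did not pass the test. Cebpe, which drives secondary granule genes, measured 311, 280.0 and 338 CPM in KO and 253, 207 and 272 CPM in WT (log2 0.28 ± 0.10, SE, n = 3 each, edgeR adjusted p = 0.146), and Gfi1, a repressor needed for granulocytes, 64.2, 63.4 and 66.5 CPM against 56.8, 49.1 and 47.4 CPM (log2 0.31, adjusted p = 0.082). The groups did not overlap for either gene. Cebpa, Cebpd and Spi1, which encodes PU.1, had log2 values of 0.17, 0.10 and -0.03. Of 18 listed myeloid factors 3 were lower in KO and 0 higher, beside 2.51% and 1.62% of all tested genes. The 3 were Cebpb, the C/EBP factor of emergency granulopoiesis (log2 -0.45, adjusted p = 0.0093), Zeb2 (log2 -0.52, adjusted p = 0.019) and Hoxa9 (log2 -0.71, adjusted p = 0.028). All 3 calls were lost with the prefix covariate, where Cebpb had log2 -0.25, and each was lost on leaving out KO1. Irf8, which favours monocytes over neutrophils, had 65.9, 91.8 and 55.2 CPM in KO and 101.2, 167 and 101.4 CPM in WT (log2 -0.88, adjusted p = 0.302).

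Among 16 tested cytokine receptors 1 was higher and 3 were lower in KO, beside 1.62% and 2.51% of all tested genes. Csf3r, the receptor for G-CSF, measured 51.5, 54.0 and 49.9 CPM in KO and 38.8, 39.5 and 32.0 CPM in WT (log2 0.46 ± 0.11, SE, n = 3 each, edgeR adjusted p = 0.0116). Flt3, Il6st and Csf1r, the receptor for M-CSF, were lower at log2 -1.64, -1.21 and -0.87, each at low levels of at most 16.2 CPM in any library. All 4 calls were lost with the prefix covariate, where Csf1r had log2 -0.24, and on leaving out KO1, and 0 genes of the list passed with DESeq2. Kit, the stem cell factor receptor, had 31.1, 28.4 and 27.9 CPM against 41.6, 28.8 and 43.1 (adjusted p = 0.077).

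Ly6c2, Selplg and Cd48, surface proteins of blood cells, fell. Of 17 tested members of the adhesion list 4 were lower and 0 higher, beside 2.51% and 1.62% of all tested genes. Ly6c2, a Ly6C surface protein, measured 921, 1060.0 and 796 CPM in KO and 1638, 2088 and 1834 CPM in WT (log2 -1.06), and its groups did not overlap. Its reads may be shared with the near-identical Ly6c1, and its call was lost within the XA libraries (adjusted p = 0.161) and without WT3. Selplg, a surface glycoprotein of leukocytes (log2 -0.65), and Cd48 (log2 -0.39) were also lower. Their calls were lost in 8 and 5 of 19 settings, and Selplg had log2 -0.24 with the prefix covariate.

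Ifitm1, Ifitm2, Ifitm3 and Ly6e, interferon-inducible membrane proteins, fell, 4 of 11 tested genes of their list, beside 2.51% of all tested genes lower in KO. Ifitm1, which restricts virus entry, measured 10.0, 10.8 and 13.2 CPM in KO and 118, 86.1 and 76.6 CPM in WT, with the lowest WT value above the highest KO value (log2 -3.05 ± 0.16, SE, n = 3 each, edgeR adjusted p = 3.9e-09). Ifitm3 measured 81.6, 79.4 and 89.5 CPM against 153, 174 and 139 (log2 -0.95), and Ly6e 303, 386 and 321 CPM against 645, 706 and 634 (log2 -1.04). The calls for these 3 genes held in all 19 settings. Ifitm1 in the Elane high cells was at 0.066 to 0.123 times its level in the other cells of the same library, where it averaged 154 CPM in KO and 972 CPM in WT (log2 -2.72, edgeR adjusted p = 1.6e-07, beside 9.94% of genes called in those cells). Ifitm3 and Ly6e were at 0.243 to 0.406 and 0.379 to 0.545 times, with log2 -0.50 and -0.66 in the other cells. The part of RNA from other cells, free in the droplets, in these levels was not tested. Ifitm2 was lower by less (log2 -0.34) and lost its call with the prefix covariate, within the XA libraries and without KO1 or KO3. The Ifitm genes are neighbours of similar sequence on chromosome 7, so the split of reads among them is uncertain. The other 7 tested genes of the list, among them Irf7, Isg15, Bst2, Oasl2, Xaf1 and Ly6a, did not pass.

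Other genes with large changes were outside the neutrophil lists. Slpi, secretory leukocyte protease inhibitor, measured 85.6, 87.3 and 77.9 CPM in KO and 358, 304 and 347 CPM in WT (log2 -2.07 ± 0.09, SE, n = 3 each, edgeR adjusted p = 8.0e-15). It was also lower in the other cells, at a mean of 54.6 CPM in KO and 214 CPM in WT (log2 -2.03, edgeR adjusted p = 2.0e-07, beside 9.94% of genes called there). In the Mpo high, Elane low cells the means were 42.5 and 303 CPM (log2 -2.86, edgeR adjusted p = 1.6e-16, beside 2.21% called). Ldhb, a lactate dehydrogenase subunit, measured 19.8, 16.0 and 14.2 CPM against 46.1, 55.1 and 49.0 (log2 -1.64, adjusted p = 9.8e-10). Hdc, histidine decarboxylase, which makes histamine and is in the basophil marker list, measured 174, 182 and 186 CPM against 95, 84.8 and 89.1 (log2 0.96, adjusted p = 2.2e-08). Serpine2, a protease inhibitor, rose with log2 0.78. In Elane high cells the calls for these 4 genes held in all 19 settings. Pgk1, Hmga1, Fgl2, H2-DMa, Rgs10, App and Apoe were also lower, with log2 values from -1.67 to -1.02. Of these 7 calls, all but that of Fgl2 were lost with the prefix covariate (edgeR adjusted p from 0.0536 for H2-DMa to 0.227 for Hmga1) and within the XA libraries, and those of Fgl2 and Rgs10 were lost after thinning. Ncam1, Adgrg1, Bex6, Rnf125, Plin3, Pecr and Afap1 were higher, with log2 values from 0.72 to 0.86. Of these 7, Ncam1, Adgrg1 and Afap1 lost their calls with the prefix covariate (edgeR adjusted p = 0.296, 0.557 and 0.122) and within the XA libraries, with Adgrg1 at log2 0.40 under the covariate. Rnf125, Plin3, Pecr and Afap1 lost theirs after thinning, and the lowest log2 value of Afap1 in any setting was 0.28. The low level of Pgk1 is uncertain, because near-identical copies of this gene exist.

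**Figure D3:**
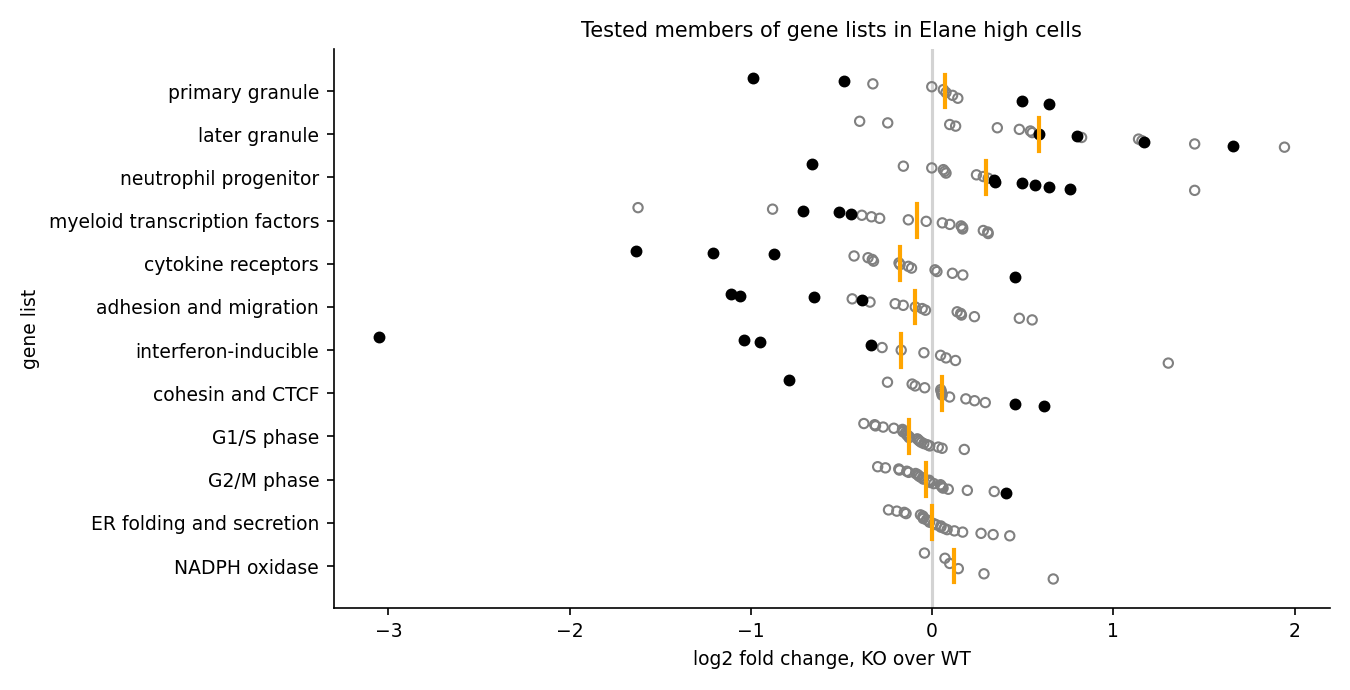
Log2 fold change (KO over WT) of each tested gene in 12 lists; filled points passed the edgeR test, open points did not, and the orange bar is the list median. The later granule median lies at 0.59, with Camp and Ngp, capped by the rule, among its genes. Elane, which chose the cells, is among the points of the primary granule and neutrophil progenitor lists. The 22 genes of the secretion list and the 6 of the NADPH oxidase list hold no filled point, where 4.13% of all tested genes passed.

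The edgeR test was passed by 0 of 22 endoplasmic reticulum folding and secretion genes, 0 of 6 NADPH oxidase genes and 0 of 23 G1/S phase genes. An unadjusted edgeR p under 0.05 was found for 5, 1 and 4 of them, and 0 passed with DESeq2. Of all tested genes 4.13% were called. In lists this short 0 calls lies near that share, so nothing is drawn from it. Of the 23 G1/S genes 20 lay below 0 in log2 fold change, with a median of -0.13. Of 24 genes of G2/M phase 1 was higher, beside 1.62% of all tested genes, and 0 passed with DESeq2. It was Mki67, at 55.9, 59.7 and 51.0 CPM in KO and 35.4, 39.5 and 42.7 CPM in WT (log2 0.41, edgeR adjusted p = 0.0249), a call lost in 10 of 19 settings. Of 14 glycolysis genes Pgk1, Hk3 and Eno1 were lower, beside 2.51% of all tested genes, and 2 genes of the list passed with DESeq2. The list median log2 fold change was -0.10. Eno1, an enolase, overlapped between the groups at 311, 325 and 299 CPM in KO and 318, 390.0 and 403 CPM in WT (log2 -0.32, edgeR adjusted p = 0.0441), and its call was lost in 12 of 19 settings, with log2 -0.09 under the prefix covariate. By phase calls on cells thinned to 2000 UMIs, 35.2% ± 2.90 of KO cells and 36.1% ± 5.61 of WT cells were in S phase, and 14.2% ± 0.831 and 13.6% ± 2.79 in G2/M (SD, n = 3 each). The exact permutation p was 0.8 for both, which does not show that the shares are alike. With cells thinned to 3000 UMIs, S phase took 51.0% of KO cells and 57.2% of WT cells, and all WT libraries lay above all KO libraries (exact permutation p = 0.1, the smallest possible).

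Markers of monocytes and of several other cell types had lower values in KO. All 11 monocyte markers lay below 0 in log2 fold change with a median of -1.28. The edgeR test was passed by 3 (Slpi, Ly6c2 and Csf1r), beside 2.51% of all tested genes lower in KO, and 6 passed with DESeq2. Slpi and Ly6c2 were at 1.43 to 1.85 and 1.96 to 3.51 times their level in the other cells. Csf1r lost its call in 8 of 18 settings. An unadjusted edgeR p under 0.05 was found for 10 of the 11, and for 1508 of all 10006 genes. The summed level of the 11 ran from 1025 to 1406 CPM in KO and from 2330 to 2996 CPM in WT. Without Slpi and Ly6c2 the sums were 151 to 259 CPM in KO, 334 to 605 CPM in WT and 934 to 1572 CPM in the other cells. Ms4a6c, F13a1 and Ccr2, further monocyte genes, did not pass, at log2 -1.39, -1.0 and -1.63. Of tested T and NK cell markers 8 of 9 lay below 0 (median -1.23), of dendritic cell markers 8 of 8 (-0.58). Of stem and multipotent progenitor markers 8 of 9 lay below 0 (-0.39). Medians for erythroid, eosinophil and B cell markers were -0.65, -0.35 and -0.26. Those for late neutrophil, megakaryocyte and neutrophil progenitor markers were above 0, at 0.55, 0.48 and 0.14. Basophil markers summed to 606 to 731 CPM in KO and 549 to 830 CPM in WT, against 9867 to 12902 CPM and 15488 to 20721 CPM in the other cells. Of 9 tested basophil markers 7 lay below 0, with a median of -0.39. Hdc was higher at log2 0.96, while Fcer1a, capped by the rule, had 5.01, 6.50 and 5.71 CPM in KO and 18.6, 10.1 and 15.1 CPM in WT. The eosinophil receptor Ccr3 was at 0. With 0 UMIs of the basophil rule genes allowed, 247 genes passed. The part of these markers in the fold changes was not tested.

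Levels within ranges of the Elane share are given for genes chosen for their genotype difference in the same cells, as a description with no test. The cells were split into those with Elane at 0.5 to 1%, at 1 to 2% and at 2% of UMIs or more, and the last bin held 45.1, 33.8 and 40.6% of cells in KO1 to KO3 and 23.1, 34.6 and 45.2% in WT1 to WT3. Prtn3 averaged 5322 ± 338 CPM in KO and 3865 ± 123 CPM in WT in the lowest bin, and 11567 ± 582 and 7850.3 ± 854 CPM in the highest (SD, n = 3 each). Serpinb1a averaged 209.9 ± 18.3 and 285 ± 19.7 CPM in the lowest bin and 347 ± 23.1 and 776 ± 97.3 CPM in the highest, so its gap between the genotypes was wider in cells with more Elane. Fcnb averaged 8.55 ± 5.57 CPM in KO and 7.97 ± 6.95 CPM in WT in the lowest bin and 891 ± 48.9 CPM against 322 ± 103 CPM in the highest. Cd34, a marker of early progenitors, averaged 12.5 ± 1.1 CPM in KO and 30.8 ± 7.53 CPM in WT in the highest bin and overlapped in the lowest. With library sums reweighted to equal bins 412 genes passed.

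**Figure D4:**
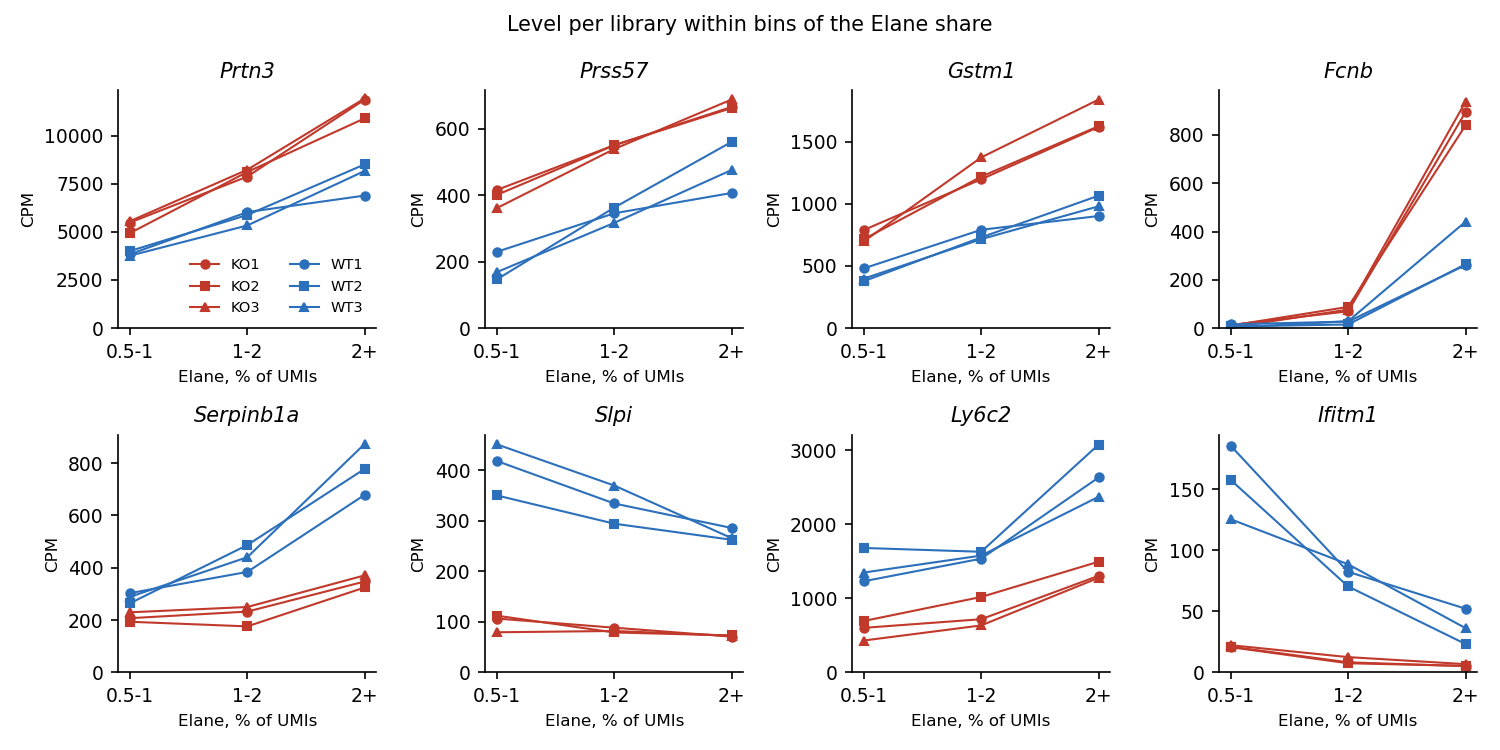
Level in CPM of 8 genes in Elane high cells split by the Elane share of UMIs (0.5 to 1%, 1 to 2%, and 2% or more), with 1 line per library (red KO, blue WT). KO lines lie above WT lines for Prtn3, Prss57 and Gstm1 and below them for Serpinb1a, Slpi, Ly6c2 and Ifitm1 in each bin, while Fcnb separates from the second bin on.

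Whether the genotype difference was particular to Elane high cells was tested within each mouse, as the difference of log2 CPM between them and other cells of the same library (limma). Against all other cells, 155 of 9976 genes (1.55%) differed in their genotype difference, 63 upward (0.632%) and 92 downward (0.922%). Leaving out 1 library changed the 155 to between 32 (without KO3) and 291 (without WT1), with 48 without KO1, 78 without KO2 and 99 without WT2. Serpinb1a was lower in KO by 0.99 on the log2 scale in Elane high cells and by 0.04 in the other cells (difference -0.95 ± 0.07, SE, n = 3 each, limma adjusted p = 2.2e-06). In the Mpo high, Elane low cells it was also lower in KO, at a mean of 168 CPM against 221 CPM (log2 -0.51, edgeR adjusted p = 0.00602, beside 2.21% of genes called there), and it was not among the genes whose genotype difference differed from those cells. Ldhb differed in the same way (-1.66 and -0.40, adjusted p = 0.0046). Anxa1 and Chchd10, a mitochondrial protein, were higher in KO in Elane high cells (0.59 and 0.68), against 0.05 and -0.33 in the others and log2 0.46 and 0.60 in the Mpo high, Elane low cells. Cebpe showed the reverse order, at 0.28 in Elane high cells and 1.75 in the others, among which KO libraries held more cells of the secondary granule stage. The other cells mix types whose shares differ between the genotypes, and the part of that mix in these values was not tested.

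**Figure D5:**
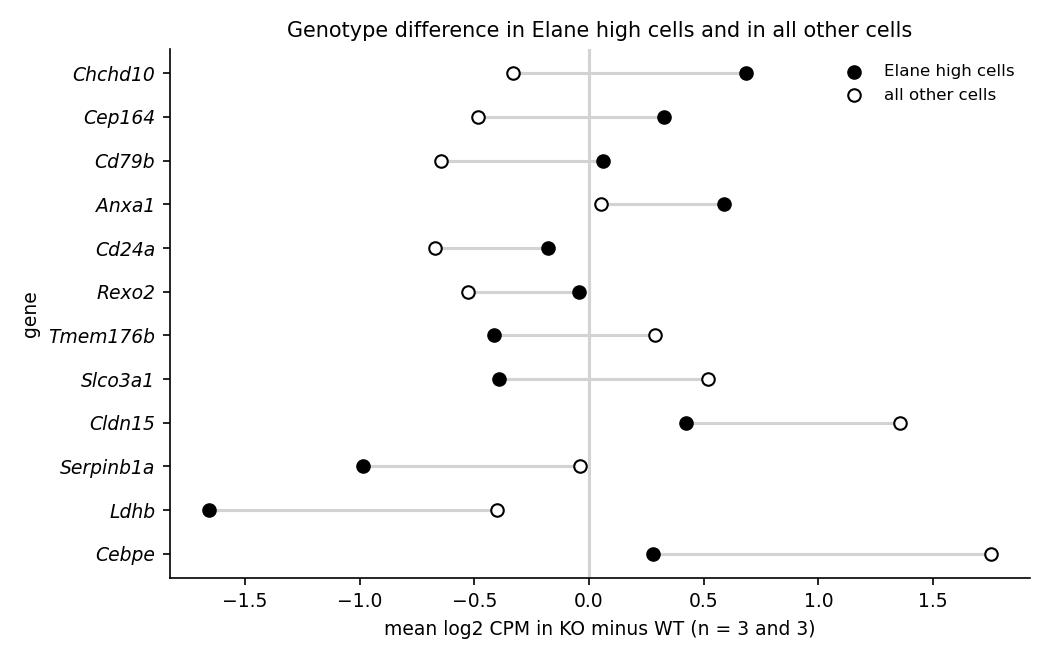
Mean log2 CPM of 3 KO minus 3 WT libraries for the 12 genes named for a difference in genotype effect, in Elane high cells (filled) and in all other cells (open). Serpinb1a and Ldhb lie lower in Elane high cells, Anxa1 and Chchd10 higher, and Cebpe rises more in the other cells.

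Against the Mpo high, Elane low cells, 6 of 6875 genes (0.0873%) differed, 5 upward (0.0727%) and 1 downward (0.0145%). Whether those cells come before the Elane high cells was not tested. Cpa3, mast cell carboxypeptidase, was higher in KO by 1.68 on the log2 scale in the Mpo high, Elane low cells and by 0.43 in Elane high cells (difference -1.24 ± 0.14, SE, n = 3 each, limma adjusted p = 0.0013). Mt1, metallothionein 1, was lower by 0.83 in the Mpo high, Elane low cells and by 0.15 in Elane high cells (adjusted p = 0.0255). Prtn3 was at log2 -0.05 in the Mpo high, Elane low cells and 0.49 in Elane high cells, a difference that was not among the 6. The Mpo high, Elane low cells numbered 163, 55 and 128 in KO1 to KO3 and 25, 67 and 101 in WT1 to WT3. With so few cells, a gene outside the 6 is not shown to behave alike in both sets. Leaving out 1 library changed the 6 to between 0 (without KO2) and 28 genes (without WT1).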

How the data were processed

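The data are 10x Chromium 3′ single-cell libraries, per the labels. The authors deposited 1 table per sample with cells in rows, gene symbols in capitals and a cluster number. Values are UMI counts the authors deposited (whole numbers); the aligner, genome build and cell calling are not stated by the labels or headers. Totals were 16155065 to 36248233 UMIs per library. Cells were chosen by the rule given at the opening of the results, counts were summed per mouse, and tables were joined by symbol (18011 symbols, 13876 in every sample, 17437 matched to GENCODE M21). Gene tests used edgeR 4.0.16 (TMM, filterByExpr, robust quasi-likelihood, adjusted p at most 0.05). Differences between cell sets used limma 3.58.1 on log2 CPM with a prior count of 2. Shares used exact permutation tests over 20 assignments, with binomial intervals from scipy 1.17.1. The edgeR step was tested on simulated data for 10006 genes: 81% of 2-fold and 99% of 4-fold changes were recovered with 10 false calls. Doublets were scored by simulation and removed only as an alternative (0.8% per 1000 cells). Alternatives were RLE factors, DESeq2 1.42.0, no low-count filter, prefix terms, other thresholds, thinning, reweighting and each library left out.

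Named genes were the 12 largest changes per direction among called genes with at least 20 CPM and separate groups, up to 4 called members per list, 6 per direction for differences, and a fixed set (Stag2, Stag1, Elane, Mpo, Prtn3, Ctsg, Prss57, Ms4a3, Cebpe, Cebpa, Cebpd, Gfi1, Spi1, Irf8, Csf3r, Fcnb, Kit, Mki67); other list members are named as list members, after their values were seen. The members and lists were chosen with earlier results of these data known. Some named or listed genes are not reported here.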

Additional observations from a re-analysis of the deposited data

Results flagged for a closer look

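The genotype difference (mean log2 CPM in KO minus WT) in Elane high cells differed from that in other cells of the same mice for the genes here, by limma within mice at an adjusted p of 0.05. The values are the difference in Elane high cells minus that in the comparison cells, in log2 units. Against Mpo high, Elane low cells, Cpa3 stood at -1.245, Plac8 at 0.284, Rpl37a at 0.301, Ftl1 at 0.306, Cyba at 0.576 and Mt1 at 0.679. Against all other cells, the lower genes were Cebpe at -1.471, Ldhb at -1.256, Serpinb1a at -0.949, Cldn15 at -0.930, Slco3a1 at -0.912 and Tmem176b at -0.702. The higher genes were Rexo2 at 0.485, Cd24a at 0.492, Anxa1 at 0.536, Cd79b at 0.704, Cep164 at 0.811 and Chchd10 at 1.016. All other cells mix cell types whose shares differ between the genotypes, and the part of that mix was not tested.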

How the results depend on the processing

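The difference in the share of Elane high cells kept its direction under all 14 alternatives, from 5.20 to 8.17 points, and leaving out 1 library gave 5.32 to 8.17 points. The 413 genes called (162 higher, 251 lower) became 233 (70 and 163) with DESeq2, 44 (20 and 24) with the prefix covariate, 60 (28 and 32) within the XA libraries, 247 (91 and 156) with 0 basophil UMIs allowed and 95 (36 and 59) after thinning to 2000 UMIs, which keeps fewer UMIs. Without the low-count filter 262 were higher. Leaving out 1 library gave 203 to 395 calls, 66 to 144 higher and 137 to 260.0 lower, the fewest without KO1, WT2 (236) or KO3 (254). The difference tests gave 0 to 28 genes against Mpo high cells and 32 to 291 against all others with 1 library left out, and the cause was not tested. Phase differences in percentage points ran with 1 library left out from -2.54 to 2.39 for S, from -0.723 to 2.04 for G2/M and from -1.66 to 2.07 for other cells, and changed sign without KO1 (S 0.759, other -1.21) or WT2 (the S and G2/M extremes and other -1.66); thinning to 3000 UMIs gave -6.19 for S. Of 66 named called genes 16 passed in all settings run and 34 without each library in turn. A stricter Mpo threshold of 0.5% was not run, because 1 library had no such cell. No paired analysis was possible because the sample numbers are in accession order and pair no mice.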
